A study of Homo sapiens with 2 samples.

Results

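The 10 genes described here encode the enzymes that make serine and pass its carbon into the folate pool: PHGDH, PSAT1, PSPH, SHMT1, SHMT2, MTHFD1, MTHFD2, MTHFD1L, ALDH1L2 and ALDH1L1. They were chosen by name, for their known roles, with earlier results of these data known. All 10 were found among the 23753 genes above background on at least 1 array. That count includes transcripts without a matched gene name, each counted under its own array name. A probe was assigned to a member when its RefSeq transcript belonged to that gene, which gave 15 probes. HepG2, a human hepatoma line with many properties of hepatocytes, was grown in high-glucose medium with serum and treated for 24 h with hawk tea extract (HTE) or with its vehicle, dimethyl sulfoxide (DMSO). Total RNA of each culture was hybridised to 1 Agilent 1-colour array, and both arrays lay on the same slide and were scanned together. The labels give an HTE dose of 200 µg/mL, whereas the name carried by the deposited HTE array reads 300. The study's text gives the same dose as that name.

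There was 1 array per condition. No test between the conditions was possible, no p value is given, precision is limited by the number of arrays, and an array effect and a treatment effect cannot be told apart. All differences are therefore descriptions of these 2 arrays. In total RNA from a culture, fewer cells that express a gene and less of its RNA per cell also cannot be told apart.

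Serine is made from the glycolytic intermediate 3-phosphoglycerate by 3 enzymes in a row, PHGDH, PSAT1 and PSPH. Serine hydroxymethyltransferases then split serine into glycine and a one-carbon unit that is carried on tetrahydrofolate. The carbon is oxidised and released by parallel sets of enzymes in mitochondria and cytosol, and it feeds the synthesis of purines, thymidylate and methionine. Mitochondria commonly make formate from serine, and the cytosol takes the formate up again. The liver is a major site of this metabolism, and the transcription factor ATF4, an effector of the response to amino acid shortage and to stress of the endoplasmic reticulum, is known to activate several of the genes.

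Relative to the 75th percentile of each array, the serine synthesis enzymes and the mitochondrial enzymes were higher on the HTE array, and SHMT1 and MTHFD1 of the cytosol were lower; scaled to the E1A spike-in, all 10 were lower, and PSAT1 was also lower with no scaling. The median log2 difference, HTE minus DMSO, was 0.23 over the 3 serine synthesis enzymes, 0.46 over the 4 mitochondrial enzymes and -0.52 over the 3 cytosolic folate enzymes. Relative to the 75th percentile, none of the 10 members differed by 2-fold in either direction. Of all genes, 5.25% were at least 2-fold higher and 3.03% at least 2-fold lower. Scaled to the E1A spike-in, 6 members were at least 2-fold lower, beside 17938 of all 23753 genes. The differences relative to the 75th percentile were thus modest in size, and they are described member by member.

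The signal of a spot is its background-subtracted intensity in arbitrary units. The log2 level is log2 of that signal minus the 75th percentile of the array, which stood at a signal of 4020.0 on the DMSO array and 3570.3 on the HTE array. Between 60.6% (DMSO) and 56.6% (HTE) of the 58717 spots that are not controls were well above background, and no spot was saturated. All 15 member probes were well above background on both arrays. Of the HepG2 markers, 12 of 12, including ALB, AFP and APOA1, were well above background on both arrays, with a summed signal of 1.00e+06 on the DMSO array and 971733 on the HTE array. Of 9 markers of blood, endothelial, stromal and glial cells, 6 were above background on the DMSO array and 5 on the HTE array, with a summed signal of 8205 and 7695, and CD3E, CDH5 and GFAP were below background on both.

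The size of the arrays' own error was read in 3 ways. Among the 681 probes printed on at least 5 usable spots, the median SD of the log2 difference over the spots of a probe was 0.051. Among the 3759 genes with several probes, the median SD over the probes of a gene was 0.16. The error model of the scanner software, carried over to the difference, gave 0.20 to 0.23 for the 15 member probes. It was 0.20 for every member probe except that of ALDH1L2, so it acts almost as a constant. It is not a spread seen among these spots, which for MTHFD2 had an SD of 0.033. None of these errors contains the spread between cultures.

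**Figure D1:**
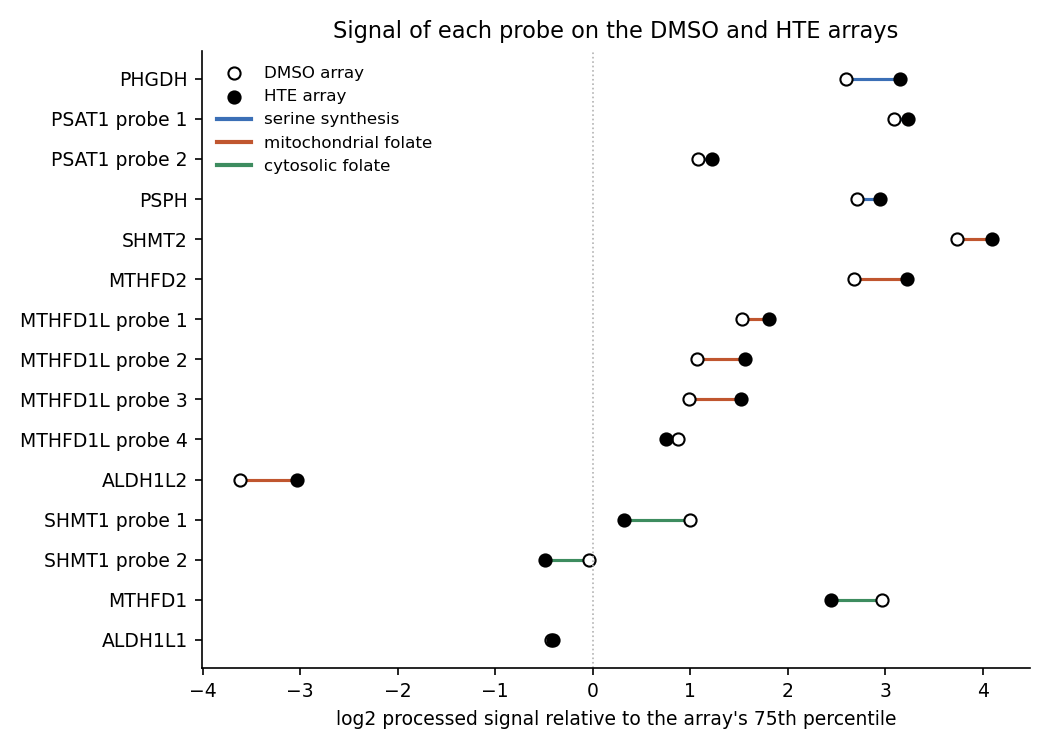
Log2 processed signal of the 15 member probes relative to the 75th percentile of each array, with 1 row per probe, an open point for the DMSO array, a filled point for the HTE array and a line coloured by group. Levels of different probes are not comparable, and PHGDH goes from 2.60 to 3.16 and the brighter SHMT1 probe from 1.00 to 0.32.

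PHGDH, which oxidises 3-phosphoglycerate and commits it to serine synthesis, had a signal of 24429 on the DMSO array and 31804 on the HTE array. Its log2 level was 2.60 on DMSO and 3.16 on HTE, a difference of 0.55 or 1.47-fold, with a software error of 0.20. The difference was 2.70 times that error, and 86.7% of all genes had a lower one. PHGDH was the enzyme of serine synthesis with the largest difference, and its single probe was brighter on the HTE array before any scaling as well.

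PSAT1, the aminotransferase of the next step, was measured by a pair of probes. The brighter had a signal of 34340 on DMSO and 33693 on HTE, and the other 8485 and 8336. The unscaled signals were therefore almost level, whereas the differences after scaling were 0.14 and 0.15, positive because the 75th percentile was lower on the HTE array. Without scaling the difference was -0.03. The 2 probes were alike in size of difference, and both were below the software error of 0.20.

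PSPH, the phosphatase that releases serine, had a signal of 26372 on DMSO and 27456 on HTE. The log2 level was 2.71 and 2.94, a difference of 0.23 or 1.17-fold, which was 1.12 times the software error. The 3 steps of serine synthesis thus lay on the same side after scaling to the 75th percentile, from 0.14 for PSAT1 to 0.55 for PHGDH.

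SHMT2, the mitochondrial serine hydroxymethyltransferase, had a signal of 53422 on DMSO and 61115 on HTE. Its log2 level was 3.73 and 4.10, a difference of 0.37 or 1.29-fold and 1.79 times the software error. MTHFD2, the mitochondrial dehydrogenase and cyclohydrolase that oxidises the one-carbon unit from SHMT2, had a mean signal of 25770 ± 435 on DMSO and 33442 ± 677 on HTE (SD over 9 spots).

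The probe for MTHFD2 was printed on 10 spots spread over 341 of the 384 rows of the array, and 1 of them was left out as an outlier. On the DMSO array the 9 spots lay between 25377 and 26513, and on the HTE array between 32779 and 34511. These unscaled signals did not overlap between the arrays. That is not particular to MTHFD2, since the spots of the related gene GLDC did not overlap either, whereas those of MTHFD2L did. The log2 difference was 0.55 ± 0.033 (SD over spots), from 0.48 to 0.59, and the fold was 1.46. MTHFD2 is thereby the only member with a spread over replicate spots, and it has 1 probe, so no spread over probes. The spots share 1 RNA sample per array and say nothing of the spread between cultures.

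**Figure D2:**
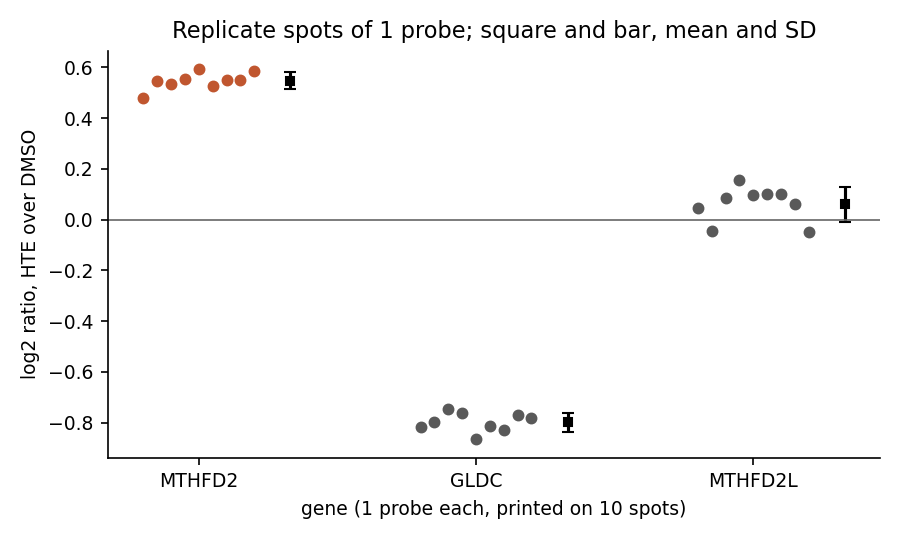
Log2 difference, HTE minus DMSO, of every usable replicate spot of MTHFD2 and of the related genes GLDC and MTHFD2L after scaling to the 75th percentile. Points are spots, and the square and bar are their mean and SD; the MTHFD2 spots lie from 0.48 to 0.59 and the GLDC spots from -0.87 to -0.75, and scaling to the E1A spike-in puts all 3 means below 0.

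MTHFD1L, the mitochondrial synthetase that releases formate, was measured by 4 probes. The brightest had a signal of 11656 on DMSO and 12504 on HTE, a log2 difference of 0.27. The others had signals of 8454 and 10558, 7971 and 10269, and 7353 and 6013, with differences of 0.49, 0.54 and -0.12. So 3 of the 4 probes were higher on the HTE array and 1 was lower, and the mean over probes was 0.30 ± 0.30 (SD). The probe at 0.49 was designed on another RefSeq transcript of the gene than the brightest probe, and whether transcripts differ was not tested.

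ALDH1L2, the mitochondrial dehydrogenase that oxidises formyl-tetrahydrofolate to carbon dioxide, had the lowest signals of the members, 327 on DMSO and 436 on HTE. The log2 level was -3.62 and -3.03, and the difference was 0.59, with a software error of 0.23. It was the highest upward value of the 10, ahead of PHGDH by less than their combined error. It was the member at the edge of the 1.5-fold cutoff. The signal lay far under the 75th percentile of both arrays.

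Of the 3 cytosolic folate enzymes, 2 were lower. SHMT1, the cytosolic serine hydroxymethyltransferase, was measured by a pair of probes, with signals of 8026 on DMSO and 4464 on HTE for the brighter and 3910 and 2540 for the other. The log2 differences were -0.68 and -0.45, or 1.60-fold and 1.37-fold lower, and only 8.18% of all genes had a lower difference than the brighter probe. Both probes were dimmer on the HTE array.

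MTHFD1, the cytosolic enzyme that carries synthetase, cyclohydrolase and dehydrogenase on 1 protein, had a signal of 31532 on DMSO and 19495 on HTE. The log2 level was 2.97 and 2.45, a difference of -0.52 or 1.44-fold lower, and 12.6% of all genes had a lower one. ALDH1L1, the cytosolic counterpart of ALDH1L2 and abundant in liver, had a signal of 2992 on DMSO and 2701 on HTE. After scaling, its difference was 0.02, which was 0.12 times the software error, and it turned to -0.15 without scaling.

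**Figure D3:**
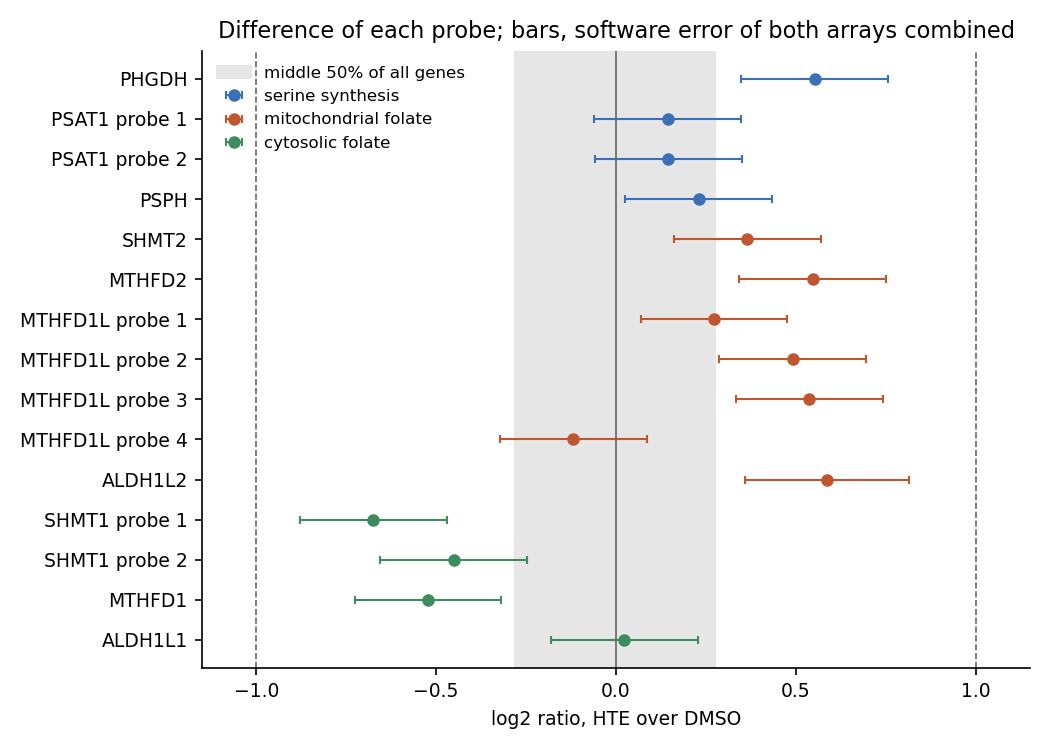
Log2 difference, HTE minus DMSO, of the 15 member probes after scaling to the 75th percentile, with the software error of both arrays combined as bars, the quartiles of all genes (-0.28 and 0.27) as the edges of a grey band and the 2-fold cutoff as dashed lines. The brightest probes run from -0.68 (SHMT1) to 0.59 (ALDH1L2), and scaling to the E1A spike-in puts all 10 members below 0.

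Over the 10 members the median difference was 0.25, beside a median of 0 and quartiles of -0.28 and 0.27 over all 23753 genes. That median falls among genes well above background on only 1 array, whose difference was set to 0. With the own values of such probes it was -0.033. With no filter on dim probes it was 0.20, and 6 members lay above it and 4 below. There were 8 members above 0 and 2 below, while 45.7% of all genes were above and 49.0% below. At 1.5-fold, 1 member was higher (ALDH1L2), beside 12.4% of all genes, and 1 was lower (SHMT1), beside 10.5%. A share of 1 in 10 is near the background in both directions. 

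In order of difference the members were ALDH1L2, PHGDH, MTHFD2, SHMT2, MTHFD1L, PSPH, PSAT1, ALDH1L1, MTHFD1 and SHMT1. Of the 9 steps between neighbours in that order, 1 was larger than the combined software error of its pair. That step was 0.55, between ALDH1L1 and MTHFD1, with a combined error of 0.29. All other neighbours differed by less than their combined error, so by that error their order cannot be read. Some members further apart, such as ALDH1L2 and ALDH1L1, differed by more. Others, such as ALDH1L2 and SHMT2, did not. After scaling to the 75th percentile, the difference itself was larger than the software error for 8 of the 10 members. PSAT1 and ALDH1L1 were the exceptions. With no scaling, SHMT2 (0.19), MTHFD1L (0.10) and PSPH (0.06) also fell below that error, which was 0.20 for each.

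The paired reactions of the compartments could be set against each other within the arrays. A difference between the differences of 2 probes is not altered by any scaling that moves a whole array. The log2 difference of SHMT2 lay 1.04 above that of SHMT1, a ratio that was 2.06-fold higher on the HTE array. For MTHFD2 against MTHFD1 the value was 1.07, or 2.10-fold. For MTHFD1L against MTHFD1 it was 0.80, and for ALDH1L2 against ALDH1L1 it was 0.56. In all 4 pairs the mitochondrial enzyme stood higher against its cytosolic counterpart on the HTE array.

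Other probes and settings moved these values to different extents. Over the 12 settings SHMT2 against SHMT1 ran from 0.82 to 1.04, MTHFD2 against MTHFD1 from 1.06 to 1.11, and ALDH1L2 against ALDH1L1 from 0.52 to 0.56. MTHFD1L against MTHFD1 ran from 0.40 to 1.06 over its 4 probes. The sign of the 4 pairs did not change, but most settings could hardly change it. Scalings that move a whole array leave these values as they are, and the settings for dim probes and outliers left them the same or nearly so. MTHFD2 against MTHFD1 and ALDH1L2 against ALDH1L1 had 1 probe pair each. The median of the mitochondrial enzymes minus that of the cytosolic enzymes was 0.98, with no test, and the pairs share MTHFD1, so they are not 4 separate measurements.

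ATF4 itself, the known activator, had a signal of 65510 on DMSO and 89473 on HTE. Its log2 level was 4.03 and 4.65, a difference of 0.62 or 1.54-fold, under the 2-fold cutoff, and it stood at -0.71 scaled to the E1A spike-in. ATF4 is controlled largely at translation, which arrays do not measure.

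Promoter sequence was searched for letters that ATF4 with its C/EBP partners, E-box factors and sterol-responsive factors are known to bind. The RefSeq promoter table (GRCh38.p14) holds 250 bases before and 50 after the start of transcription and has windows for 7 of the 10 members. The letters TGATGNAA, the core of the C/EBP-ATF response element, were searched on both strands together with the stricter form TGATGCAA, which is a part of the same search, the E-box CACGTG and the sterol response element ATCACCCC. Printed are a window of MTHFD1L and that of its cytosolic counterpart MTHFD1, the 2 members in which letters were found. Capitals mark these letters in chr6:150866236-150866535 (MTHFD1L, plus strand) and chr14:64388103-64388402 (MTHFD1, plus strand).
MTHFD1L: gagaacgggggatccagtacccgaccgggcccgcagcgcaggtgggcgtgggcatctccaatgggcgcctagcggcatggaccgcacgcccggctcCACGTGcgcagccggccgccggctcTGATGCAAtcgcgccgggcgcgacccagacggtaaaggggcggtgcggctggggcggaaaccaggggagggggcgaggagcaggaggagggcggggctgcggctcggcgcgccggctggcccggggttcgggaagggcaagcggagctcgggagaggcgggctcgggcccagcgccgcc
MTHFD1: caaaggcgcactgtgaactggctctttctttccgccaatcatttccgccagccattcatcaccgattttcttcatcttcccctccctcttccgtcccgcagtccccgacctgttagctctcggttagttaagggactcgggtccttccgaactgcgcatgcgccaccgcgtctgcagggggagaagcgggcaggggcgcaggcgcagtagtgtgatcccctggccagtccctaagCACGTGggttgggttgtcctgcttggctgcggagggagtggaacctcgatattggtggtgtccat

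MTHFD1L was the member with TGATGCAA, which lay 129 to 122 bases before the start, and it had CACGTG 154 to 149 bases before the start. These letters, as the same bases, also stood in 2 overlapping windows of the gene. Of its 4 windows, 3 held the core and the other held none of the letters searched. The position of the letters depends on the start taken. TGATGCAA lay 90 to 83 bases before the start in one overlapping window and 24 to 31 bases after it in the other. The window of MTHFD1 had CACGTG 15 to 10 bases before the start and no TGATGNAA. Over all 35116 promoter windows of the table, TGATGNAA stood in 3.62%, TGATGCAA in 0.866%, CACGTG in 7.26% and ATCACCCC in 0.689%. ATCACCCC was in no member window. A match in letters is a description and no binding was measured, and the absence of letters in a window of 300 bases says nothing of the factor.

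The enzymes around the members were taken from lists of the neighbouring steps, 46 genes in all, of which 44 were above background on at least 1 array. Their median difference was -0.19, with 14 higher and 30 lower on the HTE array. At 2-fold, 1 was higher (CTH), beside 5.25% of all genes, and 1 was lower (BHMT), beside 3.03%, so neither count exceeds the background. Of all genes, 45.7% were higher and 49.0% lower. Scaled to the E1A spike-in, every list median lay below 0, and so did each gene named below as higher.

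The glycine cleavage system, which breaks glycine down in mitochondria and hands its carbon to folate, was lower in 4 of 4 genes, with a median of -0.58. GLDC, its decarboxylase, had a mean signal of 15414 ± 373 on DMSO and 7874 ± 109.8 on HTE (SD over 9 spots), log2 levels of 1.94 and 1.14, and its difference of -0.80 ± 0.037 (SD over 9 spots) ran from -0.87 to -0.75. GCSH, its lipoyl carrier, had the smallest difference of the 4, -0.22. AMT and DLD, the other subunits, had -0.68 and -0.47. After scaling to the 75th percentile the 4 genes lay below 0, and the 4 mitochondrial members above it.

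**Figure D4:**
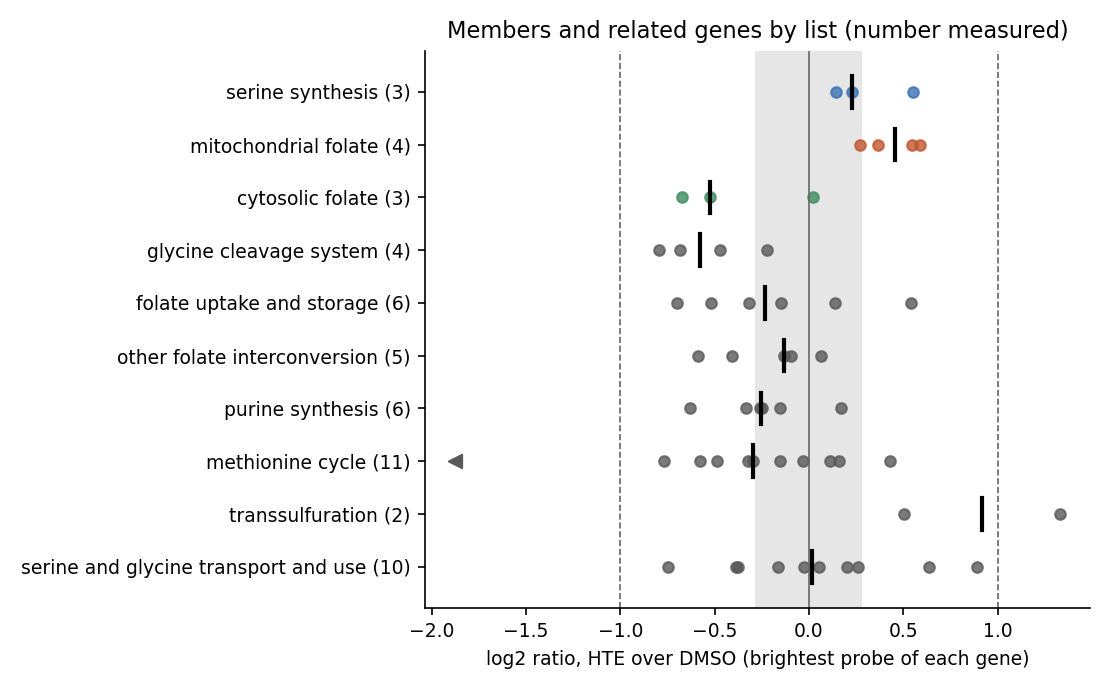
Log2 difference, HTE minus DMSO, of each gene of the member groups and of the lists of neighbouring steps, by its brightest probe after scaling to the 75th percentile. Points are genes, upright black bars medians, the triangle a bound, the grey band runs between the quartiles of all genes and dashed lines are the 2-fold cutoff; the glycine cleavage median is -0.58 and the transsulfuration median 0.92, and scaling to the E1A spike-in puts every median below 0.

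Folate uptake and storage had a median of -0.23 over 6 genes, 2 higher and 4 lower; averaging the probes of each gene gave -0.13 and taking the second brightest gave -0.092. SLC46A1, the proton-coupled folate transporter, was the highest at 0.54, and SLC19A1, the reduced folate carrier, was the lowest with -0.70 and -0.42 for its pair of probes. SLC25A32, which carries folate into mitochondria, had a difference of -0.52.

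The other enzymes that interconvert folates had a median of -0.13 over the 5 genes described, 1 higher and 4 lower. TYMS, which uses a one-carbon unit to make thymidylate, had a signal of 54804 on DMSO and 32346 on HTE and the lowest difference of these, -0.59. MTHFD2L, a mitochondrial relative of MTHFD2, was the highest at 0.06 ± 0.068 (SD over 9 spots), within the spread of its spots and below 0 with no scaling or with scaling to the array median or the spike-in.

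The enzymes of purine synthesis, a pathway that takes up formyl groups from folate, had a median of -0.25 over 6 genes, 1 higher and 5 lower. PFAS was the highest at 0.17, and without scaling it stood at -0.0017. PPAT, which opens the pathway, was the lowest at -0.63, with -0.91 for its other probe.

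The methionine cycle had a median of -0.30 over 11 genes, 3 higher and 8 lower; averaging the probes of each gene gave -0.19 and taking the second brightest gave -0.15. AHCY, which removes S-adenosylhomocysteine, was the highest at 0.43. BHMT, the betaine-dependent methyltransferase, was above background on the DMSO array and not on the HTE array, which gave a bound of at least 3.67-fold lower, or -1.87 on the log2 scale, against -1.20 with the normexp correction. GNMT, which takes up excess methyl groups in liver, had a difference of -0.77.

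Both transsulfuration enzymes, which turn homocysteine and serine into cysteine, were higher, with a median of 0.92. CTH, the lyase that releases cysteine, had a signal of 2830.1 on DMSO and 6312 on HTE, log2 levels of -0.51 and 0.82, and its difference of 1.33 or 2.51-fold was the largest upward one of the 44. CBS, which joins serine to homocysteine, had levels of 2.74 and 3.24 and a difference of 0.50. Scaled to the E1A spike-in, CTH stood at -0.0052 and CBS at -0.83.

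The genes for transport and other uses of serine and glycine had a median of 0.01, with 5 of the 10 measured genes higher and 5 lower. SFXN3, a mitochondrial serine carrier, was the highest at 0.89, and SRR, which makes D-serine, was the lowest at -0.75. SFXN1, the better known mitochondrial serine carrier, had a difference of 0.05. GLYAT and SDS were not well above background on either array.

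**Figure D5:**
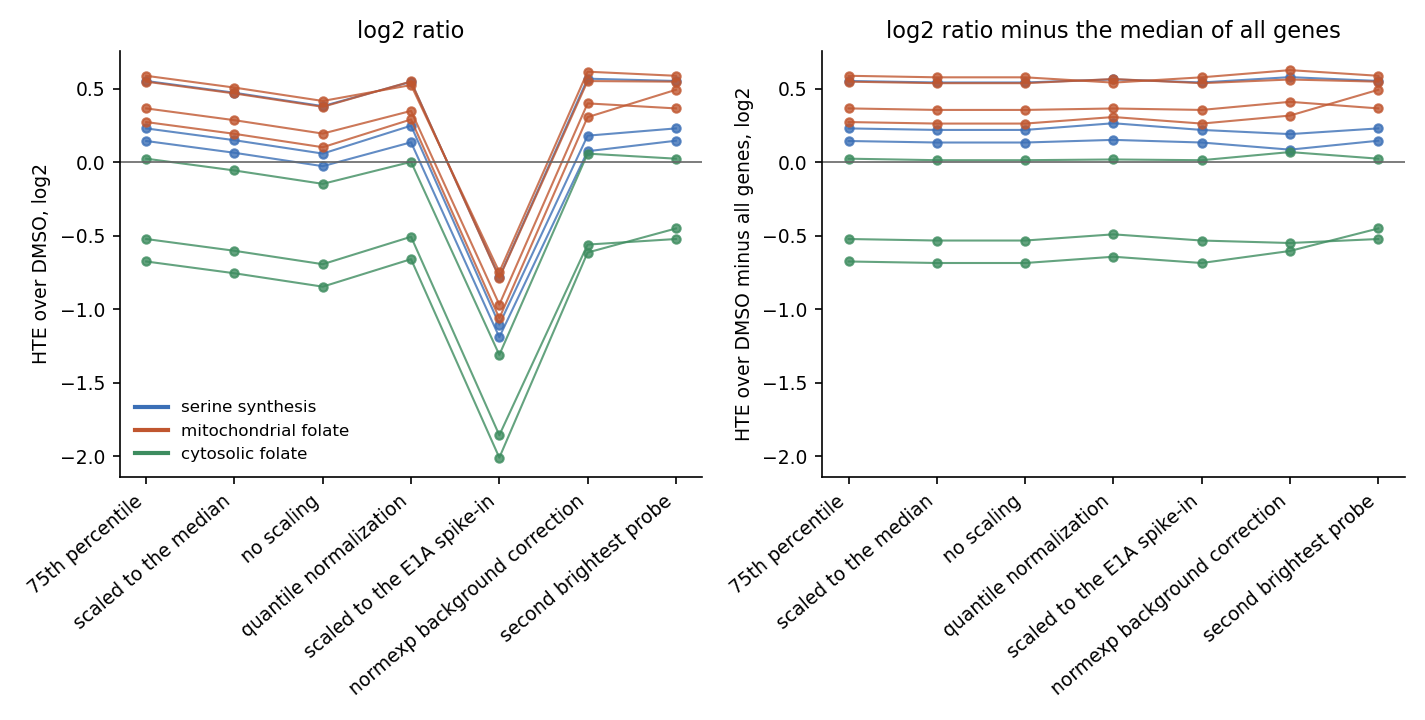
Log2 difference, HTE minus DMSO, of each member under 7 of the 12 processing settings, as such (left) and minus the median of all genes under the same setting (right), with lines coloured by group. Scaling to the E1A spike-in puts all 10 members below 0 on the left, with a median of -1.08, and on the right 8 members lie above 0 under each of the scalings drawn, as they must for those that move all genes by 1 constant.

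The direction of a member depends on what is taken as level between the arrays. The median over all genes moved by -0.07 with scaling to the array median, by -0.16 with no scaling and by -1.32 with scaling to the E1A spike-in, an RNA added in known amount. Members above 0 numbered 8 with the 75th percentile, 7 with the array median, 6 without scaling, 8 with quantile normalization and 0 with the spike-in. The 8 spike-in probes differed among themselves, from 0.45 to 1.57 on the unscaled log2 scale. Relative to the median of all genes, 8 members were above and 2, SHMT1 and MTHFD1, were below under each of these scalings; for the array median, no scaling and the spike-in this follows from the arithmetic, since each moves all genes by 1 constant.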

How the data were processed

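Expression was measured in HepG2 cells, 1 array for DMSO and 1 for HTE. The authors deposited the Agilent Feature Extraction output of each array (version 11.5.1.1 in the file header, 10.7 in the submitters' notes). What was used is the processed signal, an intensity from which the authors' software had subtracted background and which is unscaled between arrays.

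Spots that were controls or outliers were dropped. The deposited intensity was converted to log2, each array was centred on its 75th percentile, and replicate spots were averaged. Probes with a share of at least 0.5 of spots well above background on either array were retained. Where 1 array fell short, the brighter side was set against either the lowest signal well above background or the dim signal itself, whichever was higher, and a bound under 1-fold was set to 0. RefSeq accessions named 28174 of 50599 probes through the GRCh38.p14 gene table. The header names GRCh37, so no coordinates are given beyond those of the RefSeq promoter windows. A transcript without a match was kept under its array name and counted as a gene, so every share of all genes includes such entries. The brightest probe stood for each gene. Genes at least 2-fold apart were counted, the study's cutoff.

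The members and lists were chosen with earlier results of these data known. Named are all members, ATF4, and of each list the largest difference in each direction and each gene past 2-fold; SLC25A32, AMT, DLD, GNMT and SFXN1 were added after their values were seen. Some genes of the lists are not reported here. The alternatives were other scalings, normexp correction (offset 50, limma) on the median signal, since the mean planned was not used here, other filters and probes, and cutoffs of 1.5-fold and 3-fold. Before use, the 2-fold calls were tried on a copy of the DMSO array with 200 genes shifted by 1.5 on the log2 scale. The noise added was 0.1, and the 200 genes were called with 0 others. That shift is past the cutoff and larger than that of any member, so the trial does not bear on the members' differences. The tools were Python 3.11.15 (numpy 2.4.6, pandas 2.3.3, matplotlib 3.10.9) and R 4.3.3 (limma 3.58.1).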

Additional observations from a re-analysis of the deposited data

How the results depend on the processing

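No paired analysis was possible because there was 1 array per condition. Precision is limited by the number of arrays. A log2 difference was taken as moved when it shifted by more than 0.051, the median SD over replicate spots. With scaling to the array median, with no scaling and with the E1A spike-in, the median log2 difference was 0.17, 0.080 and -1.08 for all members, 0.15, 0.058 and -1.10 for serine synthesis, 0.38, 0.28 and -0.88 for the mitochondrial enzymes, and -0.60, -0.69 and -1.86 for the cytosolic enzymes. With the second brightest probe the mitochondrial median was 0.52 and the cytosolic median -0.45. The mitochondrial minus the cytosolic median was 1.04 with normexp and 0.94 to 0.98 under the other alternatives. CTH stood at -0.0052 with the spike-in. The count of members at least 2-fold lower was 6 with the spike-in and 1 at a cutoff of 1.5-fold, and the count at least 2-fold higher was 1 at that cutoff. Over all genes, 1248 were at least 2-fold higher and 720 lower. With the spike-in these counts were 121 and 17938, with normexp 825 and 468, and with no filter on dim probes 2297 and 1270. At 1.5-fold they were 2953 and 2504, and at 3-fold 422 and 129. With no scaling they were 883 and 1209, and with the own values of dim probes 1341 and 1321. With scaling to the array median they were 1073 and 896, and with probes above background on both arrays 901 and 621. With no filter on dim probes the median of all genes was 0.20, and 6 members lay above it and 4 below. Outlier spots, when kept, moved none of the log2 differences and gave 1288 genes at least 2-fold higher and 725 lower. The alternatives for the difference between compartments and for the neighbouring lists were chosen after seeing the data. The cause of these shifts was not tested.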
